A study of Rattus norvegicus with 50 samples.

Results

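The 9 chemokine receptors Ccr1, Ccr2, Ccr3, Ccr6, Ccr7, Cxcr3, Cxcr4, Cx3cr1 and Ackr4 were followed in rat lung after inhalation of titanium dioxide (TiO2) nanoparticles. They were chosen by gene name among the spots of the array that carry a gene probe. Each was measured by 1 probe, and all 9 were among the 25208 genes tested, out of 30367 gene probes. Male F344 rats, 12 weeks old, breathed either air or a TiO2 P25 aerosol at 10 mg/m3 through the nose only, for 6 hours a day, 5 days a week, over 4 weeks. Lungs were taken at 5 times. D0 was the end of the last exposure, and D3, D28, D90 and D180 followed by that number of days. Each day had 5 control rats and 5 exposed rats, with different rats on each day. RNA from the accessory lobe of each rat was hybridised to 1 one-colour Agilent array, which gave 50 arrays in 10 groups. No genetic change or other treatment was part of the design.

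Chemokines are small secreted proteins that draw leukocytes along a concentration gradient. Their receptors span the cell membrane and, in most cases, signal through G proteins, so the receptors a leukocyte carries decide which chemokines it can follow. Ccr2 marks the monocytes that leave blood for inflamed tissue, whereas Ccr6, Ccr7 and Cxcr3 are carried mainly by lymphocytes and dendritic cells. A whole lobe mixes leukocytes with epithelial, endothelial and stromal cells. In such bulk tissue, fewer cells of a type and less RNA per cell cannot be told apart.

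Probe sequences are given for the members on which the results turn. Each probe is 60 bases long, and the last 30 bases are printed 5′ to 3′, with runs of alternating C and A bases in capitals. Positions are those of the whole probe in rat genome build rn4, per the file headers. The Ccr2 probe lies at chr8:128893805-128893864 on the plus strand and that of Ccr6 at chr1:47115503-47115562 on the minus strand. The Cx3cr1 probe lies at chr8:125033728-125033787 and that of Ackr4 at chr8:109160685-109160744, both on the minus strand. Whether they fall in coding sequence or in an untranslated region was not analysed here. Ccr2 and Ccr6 are shown because they passed the limits set for a change, Cx3cr1 and Ackr4 because their probes share a repeat, and Extl3 and Rassf2 because their probes hold the same repeat.
Ccr2: agacagcagaccgagtgagctcaacattta
Ccr6: acatgtgaaaaaataaaaaagagagagaaa
Cx3cr1: aacagattCACACACACACACACACACACA
Ackr4: tttttgcttACACACACACACACACACACA
Extl3: tgcacgCACACACACACACACACACACACA
Rassf2: ctaACACACACACACACACACACACACACA

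Values below are normalized log2 signals, on which 1 unit is a doubling. Levels are compared between groups for 1 probe and never between probes, since probes differ in how strongly they bind. A gene was called over-expressed or under-expressed when exposed and control rats differed by at least 1.5-fold with a Benjamini-Hochberg adjusted p under 0.05 in limma, over all 25208 genes. The arrays were on 7 slides. Slides 1 to 4 held the rats of D0, D3 and D28, and slides 5 to 7 those of D90 and D180, except for 1 exposed rat of D3 that was on a slide of the second set. Differences between early and late days therefore cannot be told apart from differences between the slide sets. Between 68.7% and 84.5% of gene spots per array were well above background. Among the members, 7 were well above background on all 50 arrays, Ccr7 on 49 and Ccr3 on 24. Defining lung genes were near the top of the scale, with a mean over the 9 lung markers between 16.4 and 16.7 in each rat of D0.

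Of the 9 receptors, 2 were over-expressed at D0, Ccr2 and Ccr6, and none was under-expressed. In all, 4.28% of the genes tested were called at D0. The median change of the 9 receptors at D0 was 0.43, against -0.01 over all genes. No receptor was called at D3, D28, D90 or D180, where 3.48%, 1.33%, 0.381% and 0.325% of all genes were called. In limma at an unadjusted p under 0.05 they were 4, 2, 0 and 0 of 9 on those days, against 21.8%, 16.6%, 7.11% and 8.05% of all genes (23.4% at D0). With the adjusted p alone and no limit on fold, 4 receptors passed at D0 (Ccr2, Ccr6, Ccr7 and Cxcr3), 3 at D3 (Ccr2, Ccr7 and Cxcr3), 1 at D28 (Ccr2) and 0 at D90 and D180. Of all genes, 13.5%, 10.4%, 3.88%, 1.05% and 0.893% passed that rule from D0 to D180. Each of those receptor levels was higher in exposed rats.

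**Figure D1:**
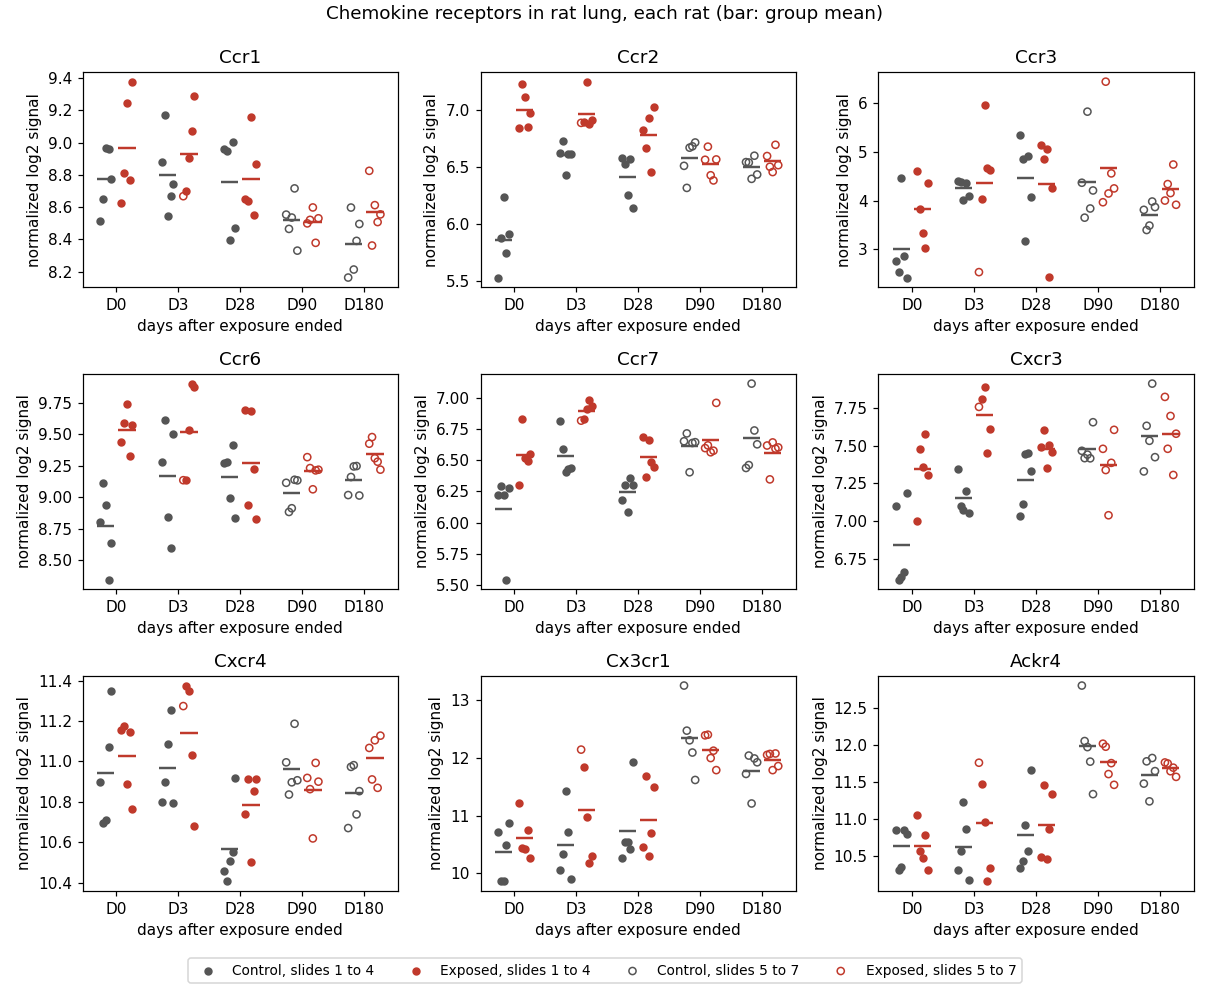
Normalized log2 signal of the 9 receptors in each of the 50 rats, by days after the end of exposure. Grey is control, red is exposed, bars are the means of 5 rats, filled points are arrays of slides 1 to 4 and open points arrays of slides 5 to 7. At D0 the Ccr2 points of exposed rats lie between 6.84 and 7.23 and those of control rats between 5.53 and 6.24.

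Ccr2, the receptor for Ccl2, Ccl7 and Ccl12 and the main route by which monocytes enter inflamed tissue, showed the widest gap. At D0 its level was 5.53, 5.88, 6.24, 5.75 and 5.91 in the control rats. In the exposed rats of D0 it was 6.84, 7.23, 7.11, 6.85 and 6.98. All 5 exposed rats lay above every control rat. The means were 5.86 ± 0.26 and 7.00 ± 0.17 (SD, n = 5), a difference of 1.14 ± 0.11 (SE), or 2.21-fold, with an adjusted p of 3.77e-11 in limma. Within the 4 slides that held both groups, the difference ran from 0.74 to 1.29. The difference was 0.65 after normexp background correction and 0.75 in the deposited value table, and it was called in both.

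At D3 the Ccr2 level was 6.62, 6.73, 6.43, 6.61 and 6.61 in control rats and 6.89, 6.89, 7.25, 6.88 and 6.92 in exposed rats. The groups again did not overlap, but the gap was smaller, at 0.36 ± 0.11 (adjusted p = 0.0198), below 1.5-fold. At D28 control rats had 6.58, 6.52, 6.26, 6.57 and 6.14 and exposed rats 6.83, 6.67, 6.93, 6.46 and 7.03. Here 4 of 5 exposed rats were above every control rat, and the difference was 0.37 ± 0.11 (adjusted p = 0.0376). At D90 the control rats ranged from 6.32 to 6.72 and the exposed rats from 6.38 to 6.68. At D180 the ranges were 6.40 to 6.60 and 6.46 to 6.70. The 2 groups overlapped on both late days, with differences of -0.06 ± 0.11 and 0.05 ± 0.11.

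The Ccr2 response was tested between days as the change at a later day minus the change at D0. It was -0.78 at D3 (adjusted p = 0.00228), -0.77 at D28 (adjusted p = 0.00109), -1.20 at D90 (adjusted p = 2.58e-07) and -1.09 at D180 (adjusted p = 2.37e-06), all in limma and all called. Of all genes, 0.678%, 1.61%, 2.17% and 2.24% were called in these 4 comparisons, each of which uses the same D0 rats. After normexp background correction the D3 and D28 differences fell short of 1.5-fold, at -0.42 and -0.40.

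The control rats also differed between days. The mean Ccr2 level of exposed rats was 7.00, 6.97, 6.78, 6.52 and 6.55 from D0 to D180, whereas that of control rats was 5.86, 6.60, 6.41, 6.58 and 6.50. Control rats were higher at D3 than at D0 by 0.74 ± 0.11 (adjusted p = 3.18e-06), a called difference in a comparison where 2.33% of genes were called. Of 8 monocyte markers, 3 were also called higher in control rats of D3 than of D0, Fcnb (1.81), Vcan (1.04) and Plac8 (0.97), and their part in the Ccr2 difference was not tested. Control rats at D28 were higher than at D0 by 0.55 ± 0.11 (adjusted p = 0.000406), below 1.5-fold, where 2.49% of genes were called. From D90 to D180 the control level moved by -0.08 ± 0.11, and only 0.0198% of genes (5 genes) were called. When the exposed rats of D0 were set against the 15 control rats of D0, D3 and D28 together, Ccr2 was still called, at 0.71 ± 0.09 (adjusted p = 4.35e-08), with 2.64% of all genes called. Ccr2 was then the only receptor called among the 9.

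Across the 10 group means, Ccr2 was highest in exposed rats of D0 and lowest in control rats of D0. No pair of neighbours in that order was free of overlap between rats.

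Ccr6, the receptor for Ccl20, is found on B cells, on interleukin 17-producing T cells and on some dendritic cells. Its level at D0 was 8.81, 9.11, 8.94, 8.35 and 8.64 in control rats. It was 9.44, 9.59, 9.74, 9.33 and 9.57 in exposed rats, all above the highest control. The means were 8.77 ± 0.29 and 9.53 ± 0.16 (SD, n = 5), a difference of 0.76 ± 0.17 (SE), or 1.70-fold (adjusted p = 0.000863, limma). Within the 4 slides with both groups the difference was between 0.62 and 1.11. Against the 15 control rats of D0, D3 and D28 together the difference was 0.50 ± 0.14 (adjusted p = 0.00965), no longer 1.5-fold.

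At D3 the Ccr6 levels overlapped, with 9.28, 9.61, 8.84, 8.60 and 9.50 in control rats and 9.13, 9.14, 9.53, 9.90 and 9.88 in exposed rats. The difference was 0.35 ± 0.17 (adjusted p = 0.207). With the slide as a block it was 0.50 (adjusted p = 0.000441), still below 1.5-fold. At D28, D90 and D180 the differences were 0.11, 0.17 and 0.21, each ± 0.17, with adjusted p from 0.783 to 1.00. The spread among rats was wider on D3, at SDs of 0.43 and 0.38, than on D90, at 0.13 and 0.09. The change in Ccr6 at a later day minus that at D0 was between -0.65 and -0.41, and none of the 4 differences was called.

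Cxcr3 is the receptor for Cxcl9, Cxcl10 and Cxcl11 on activated T cells and natural killer cells. At D0 its level was 7.10, 6.61, 6.63, 6.67 and 7.19 in control rats and 7.00, 7.48, 7.36, 7.57 and 7.31 in exposed rats. Exposed replicate 1 lay inside the control range, and the other 4 lay above it. The difference was 0.50 ± 0.12 (adjusted p = 0.0024), below 1.5-fold, and it was called when control replicate 5 or exposed replicate 1 of D0 was left out (0.59 in both cases). At D3 it was 7.35, 7.10, 7.07, 7.20 and 7.05 in control rats and 7.76, 7.81, 7.89, 7.45 and 7.61 in exposed rats. These groups did not overlap, and the difference of 0.55 ± 0.12 (adjusted p = 0.00119) was 1.46-fold, just under the limit. It passed the limit when control replicate 1 (0.60) or exposed replicate 4 (0.61) of D3 was left out. At D28 the difference was 0.21 ± 0.12 (adjusted p = 0.401).

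At D90 the direction of Cxcr3 was the opposite of that at D0, with control rats from 7.42 to 7.65 and exposed rats from 7.04 to 7.60. The D90 difference, -0.11 ± 0.12, was not called, and at D180 it was 0.01 ± 0.12. The change at D90 minus that at D0 was called, at -0.61 (adjusted p = 0.0273). It lost the call with normexp background correction (-0.41) and with scaling to the 75th percentile (-0.63, adjusted p = 0.0774), and without any of 7 single rats, 5 of them of D0, its adjusted p lay between 0.0551 and 0.0808.

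Ccr7 guides naive T cells and mature dendritic cells to lymph nodes along Ccl19 and Ccl21. At D0 its level was 6.22, 6.29, 6.22, 5.54 and 6.27 in control rats and 6.31, 6.83, 6.52, 6.49 and 6.55 in exposed rats. The groups did not overlap, although the lowest exposed rat and the highest control rat were 6.31 and 6.29. The difference was 0.43 ± 0.12 (adjusted p = 0.00799), below 1.5-fold. At D3 exposed rats lay between 6.82 and 6.99 and control rats between 6.41 and 6.82. That difference was 0.36 ± 0.12 (adjusted p = 0.0368). At D28 all 5 exposed rats, from 6.36 to 6.69, were again above every control rat, from 6.08 to 6.36, but the adjusted p was 0.190. At D90 and D180 the differences were 0.05 and -0.12. The Ccr7 change at D180 minus that at D0 was -0.55 (adjusted p = 0.0489), below 1.5-fold, and it was called with scaling to the 75th percentile (-0.69). It was also called without control replicate 2 (-0.59) or 5 (-0.59) or exposed replicate 1 (-0.61) of D0, and without control replicate 1 (-0.61) or 2 (-0.60) of D180.

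Control rats of D0 were the lowest of the 10 groups for Ccr2, Ccr3, Ccr6, Ccr7, Cxcr3 and Cx3cr1. Ccr7 averaged 6.11 in control rats of D0 and 6.54 in those of D3, a difference of 0.43 ± 0.12 (adjusted p = 0.0153), below 1.5-fold. The Cxcr3 mean of control rats was 6.84 at D0 and 7.27 at D28, a difference of 0.43 ± 0.12 (adjusted p = 0.018), also below 1.5-fold. For Ccr6 the control means were 8.77 at D0 and 9.17 at D3 (difference 0.40, adjusted p = 0.166). With the slide as a block, Ccr3 (1.31) and Cx3cr1 (0.62) were called higher in control rats of D28 than of D0. Limma without the block called neither (adjusted p = 0.0736 and 0.616). The Ccr3 spot was well above background in 0 of 5 control rats of D0 and 2 of 5 of D28. For Cx3cr1, whose probe ends in the repeat printed above, 1 control rat of D28 stood apart, at 11.92. Of the 10 T cell markers, 3 were over-expressed at D0 (Cd3g, Cd5 and Il7r), where 4.28% of all genes were called. The mean of that list ran from 7.81 to 8.21 in control rats of D0 and from 8.31 to 8.67 in exposed rats, and its part in the Ccr6, Ccr7 and Cxcr3 differences was not tested.

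**Figure D2:**
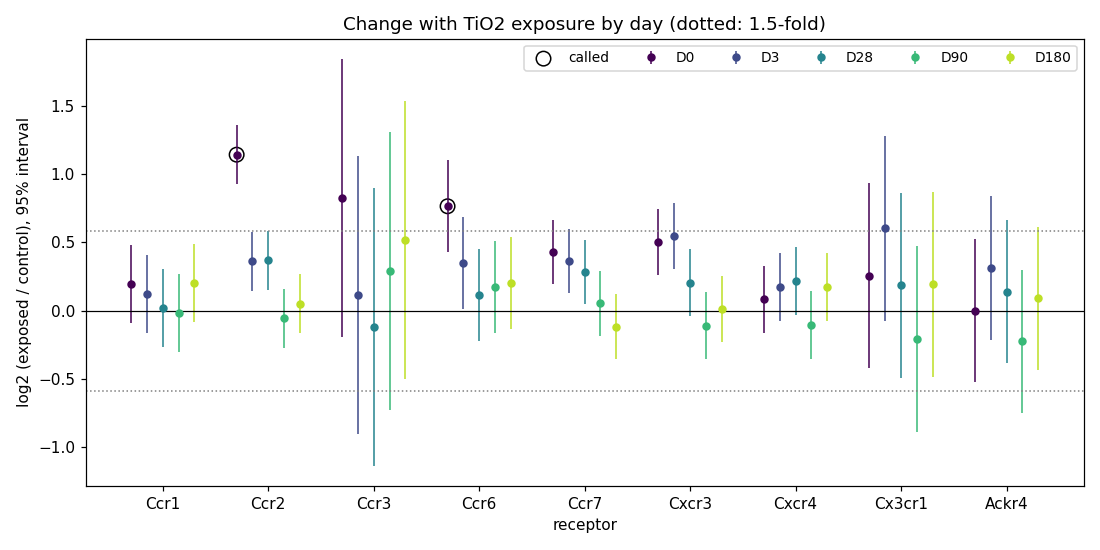
Difference between exposed and control rats on the log2 scale for each receptor and day, with 95% intervals from limma, 5 rats per group. Dotted lines mark 1.5-fold and rings mark called differences, which are Ccr2 (1.14) and Ccr6 (0.76) at D0.

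Ccr1, a receptor for Ccl3, Ccl5, Ccl7 and Ccl9 on monocytes, macrophages and neutrophils, was not called on any day. At D0 its level was 8.52, 8.65, 8.97, 8.96 and 8.78 in control rats and 8.62, 8.81, 9.25, 8.77 and 9.38 in exposed rats. The groups overlapped, with 2 exposed rats above every control. The difference at D0 was 0.19, with a 95% interval from -0.09 to 0.48, so that a change of 1.5-fold (0.58) lay outside the interval. On the other days the difference was between -0.01 and 0.20.

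Cxcr4, the receptor for Cxcl12 on most leukocytes, also overlapped at D0. Control rats had 10.90, 10.69, 10.71, 11.07 and 11.35 and exposed rats 11.16, 11.17, 10.89, 11.14 and 10.77. No exposed rat was outside the control range, and the difference was 0.08, with a 95% interval from -0.17 to 0.33. Its differences on the 5 days ran from -0.11 to 0.22. The lowest Cxcr4 group was control rats of D28, with a mean of 10.57 ± 0.20, compared with 10.94 ± 0.27 in control rats of D0.

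Ccr3, the eotaxin receptor that marks eosinophils, was close to background. Its spot was well above background in 0 of 5 control rats and 2 of 5 exposed rats at D0. The level was 2.76, 2.55, 4.46, 2.87 and 2.43 in those control rats and 4.61, 3.83, 3.34, 3.03 and 4.36 in the exposed rats. Scatter was wide, with SDs up to 1.24 in a group. The difference of 0.82 ± 0.50 at D0 had a 95% interval from -0.19 to 1.84 (adjusted p = 0.359). The 95% interval of the Ccr3 difference held a rise of 1.5-fold on all 5 days. Of 7 eosinophil markers, Epx, Prg3 and Il5ra were well above background on 1, 3 and 3 of the 50 arrays, and Siglec8, Prg2, Alox15 and Siglec5 on 47, 49, 50 and 50. Alox15, a lipoxygenase, was under-expressed at D0 (-1.19) and D3 (-1.12), and no other marker of that list was called on either day. The list mean ran from 5.13 to 5.67 in control rats of D0 and from 5.06 to 5.29 in exposed rats, and its part in the Ccr3 values was not tested.

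Cx3cr1 binds Cx3cl1 (fractalkine) and is carried by patrolling monocytes and tissue macrophages. At D0 its level was 10.72, 9.86, 9.86, 10.49 and 10.87 in control rats and 11.21, 10.44, 10.42, 10.74 and 10.27 in exposed rats. The difference was 0.26, with a 95% interval from -0.42 to 0.93. At D3 control rats had 10.06, 10.34, 11.42, 10.72 and 9.89 and exposed rats 12.14, 11.84, 10.98, 10.18 and 10.30. Spread within the exposed group of D3 was close to 2 units, and the difference of 0.60 ± 0.34 was not called (adjusted p = 0.305). Exposed replicate 1 of D3, at 12.14, was the rat on the second slide set and the highest of its group.

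Ackr4 is an atypical receptor that takes up Ccl19, Ccl21 and Ccl25 without G protein signalling. At D0 control rats had 10.85, 10.31, 10.35, 10.86 and 10.80 and exposed rats 11.05, 10.56, 10.48, 10.78 and 10.31. The difference was 0.00, with a 95% interval from -0.52 to 0.52. At D3 it was 0.31 ± 0.26 (adjusted p = 0.543), with exposed replicate 1 again the highest, at 11.76.

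The probes of Cx3cr1 and Ackr4 ended in the same repeat, as printed above, of 22 and 21 bases. Their signals varied together over the 50 arrays, with a Pearson r of 0.92 after the mean of each slide was removed. A run of at least 12 alternating C and A bases (CACACACACACA or ACACACACACAC, read on the printed strand only) was present in 17 of the 30367 gene probes, or 0.056%. These gave 16 of the genes tested. Of the 15 besides Cx3cr1, 14 had an r of 0.75 or more with Cx3cr1, against 60 of 24982 genes without such a run, and Plcb4 was the exception, at -0.15. The letters were searched after the likeness had been seen, so these figures are a description. The named genes most like Cx3cr1 were Extl3 (r = 0.97), Rassf2 (0.96) and Tmem47 (0.96), and all had the run at the end of the probe. Among the 10 named genes most like each receptor, 8 held the run for Cx3cr1, 7 for Ackr4 and 0 for each of the other 7 receptors.

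**Figure D3:**
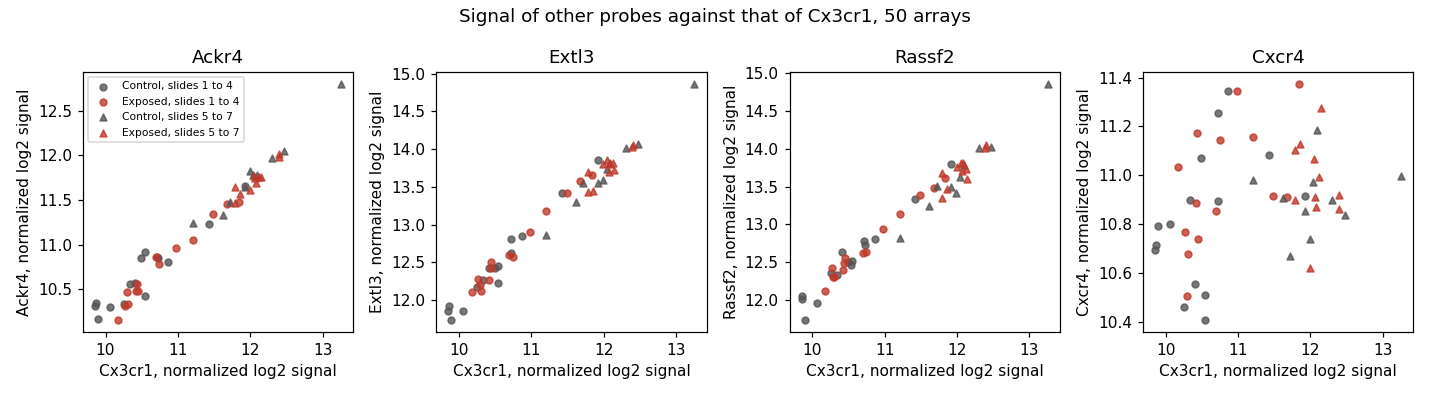
Normalized log2 signal of Ackr4, Extl3, Rassf2 and Cxcr4 against that of Cx3cr1 on the 50 arrays. Circles are slides 1 to 4, triangles slides 5 to 7, grey is control and red is exposed. Ackr4, Extl3 and Rassf2, whose probes hold the repeat, lie along a line, and Cxcr4, whose probe does not, shows no such line.

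Both receptors were also higher on the second slide set. Cx3cr1 averaged 10.65 ± 0.57 over 29 arrays of slides 1 to 4 and 12.06 ± 0.40 over 21 arrays of slides 5 to 7, a difference of 1.41. For Ackr4 the means were 10.72 ± 0.42 and 11.76 ± 0.32, a difference of 1.04. These shifts stood at percentiles 99.5 and 98.3 of all genes tested, and those of the other 7 receptors were between -0.34 and 0.23. Extl3 and Rassf2 moved with them, by 1.17 and 1.07. The part of the repeat in the Cx3cr1 and Ackr4 values was not tested.

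The genes that tracked the other receptors differed from one receptor to the next. They were taken as the 3 named genes with the highest Pearson r over the 50 arrays after removal of slide means, and the arrays share the group differences, so r is given as a description. Ccr2 was most like Nuf2 (a kinetochore protein), Ccnb1 (cyclin B1) and Cks2 (a partner of cyclin-dependent kinases), at r of 0.86, 0.85 and 0.85. All 3 were over-expressed at D0, by 1.69, 1.82 and 1.81, and Ccnb1 (0.72) and Cks2 (0.59) also at D3. Their control rats were also low at D0, and for Ccnb1 the mean of control rats went from 6.37 at D0 to 7.78 at D3.

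Ccr6 was most like Cd3g (r = 0.84), Icos (0.83) and Sit1 (0.82), which are T cell surface or adaptor proteins. Next came Itih1 (0.81), Cd3d (0.80), Ctse (0.80) and Chi3l1 (0.80), of which only Cd3d is on the T cell list. Icos was over-expressed by 1.06 at D0, 0.75 at D3 and 0.60 at D28. Cxcr3 was most like Cd6 (0.85), Cd3g (0.81) and Zc3h12d (0.81), and Ccr7 like Cdc6 (0.79), Bcl11b (0.78) and Cd3d (0.77). Ccr1 was most like Ufm1 (0.71), Cd274 (0.70) and Rap2b (0.69), and Cxcr4 like Tnfrsf26 (0.78), Irx3 (0.71) and Rgs2 (0.71). The likeness was weakest for Ccr3, whose closest gene was Esco2 (0.66). Between receptors, each pair among Ccr2, Ccr6, Ccr7 and Cxcr3 had an r between 0.66 and 0.69.

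Some of the chemokines that these receptors bind were over-expressed at D0 and D3. Of 20 ligands tested, 10 were over-expressed at D0 and 7 at D3, and 1 was under-expressed at D3. Of all genes, 4.28% were called at D0 and 3.48% at D3. The median ligand change was 0.48 at D0 and 0.29 at D3, against -0.01 over all genes on each of these days. Among the Ccr2 ligands, Ccl2 rose by 2.55 ± 0.23 at D0 and 2.07 ± 0.23 at D3. Ccl7 rose by 2.62 ± 0.25 at D0 and by 2.62 ± 0.25 at D3, and Ccl12 by 2.85 ± 0.41 and 3.13 ± 0.41. Their receptor rose by 1.14 at D0 and was not called at D3, when the 3 ligands still were.

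Ccl20, the ligand of Ccr6, rose by 1.28 ± 0.13 at D0 and by 0.64 ± 0.13 at D3. Of the Cxcr3 ligands, Cxcl10 rose by 1.19 ± 0.29 at D0 and 2.29 ± 0.29 at D3, and Cxcl11 by 1.83 ± 0.31 and 2.72 ± 0.31. Cxcl9, the third Cxcr3 ligand, was not called on either day, at 0.26 ± 0.10 on both. Cx3cl1 rose by 1.39 ± 0.11 at D0 and 1.07 ± 0.11 at D3, whereas the Cx3cr1 probe showed no called change.

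Ligands of the uncalled receptors gave a mixed picture. The inflammatory chemokines Ccl3, Ccl4 and Ccl9 rose at D0 by 0.87, 0.70 and 1.01, and none of the 3 was called at D3. Ccl5 and Ccl6 were not called at D0 or D3. The eotaxin Ccl11, a Ccr3 ligand, was 10.09 in control rats and 9.29 in exposed rats of D3, lower by -0.81 ± 0.17 (adjusted p = 0.000822). Ccl24 was not called, and Ccl26 and Ccl25 were well above background on 1 and 3 arrays. Neither the Ccr7 ligands Ccl19 and Ccl21 nor Cxcl12 was called on any day. No ligand was called at D28, D90 or D180 in limma, where 9, 8 and 4 of 20 had an unadjusted p under 0.05, against 16.6%, 7.11% and 8.05% of all genes. With the slide as a block, Ccl7 (0.84) and Cxcl10 (0.89) were called at D28 and Ccl7 (0.94) at D180.

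**Figure D4:**
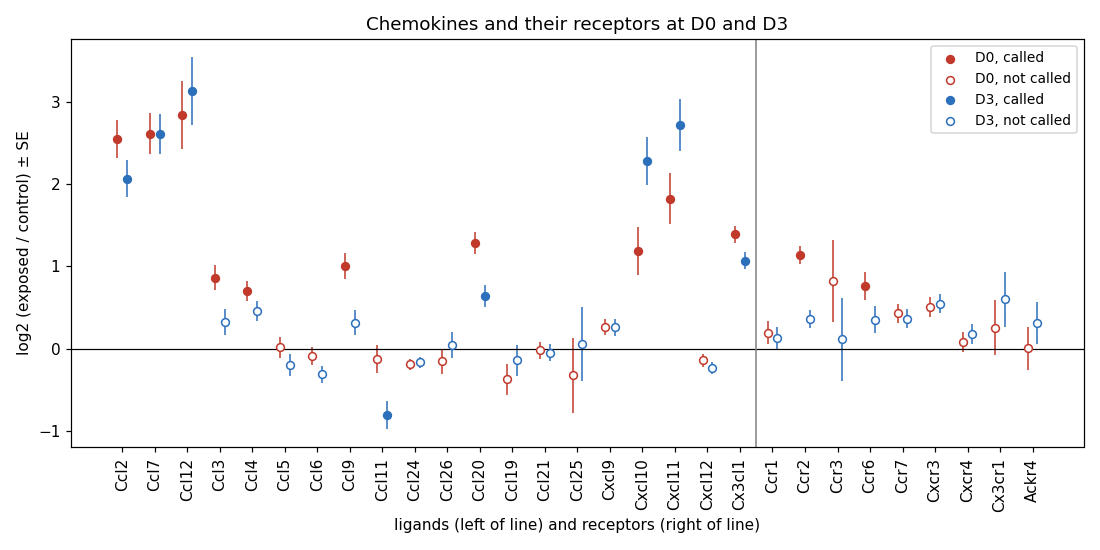
Difference between exposed and control rats, log2 scale ± SE, for 20 ligands and the 9 receptors at D0 (red) and D3 (blue), 5 rats per group. Filled points are called. The ligands Ccl2, Ccl7 and Ccl12 lie above 2 on both days, and no receptor lies above 1.14.

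Among 14 further receptors tested of 15 listed, 2 were over-expressed and 1 under-expressed at D0. Of all genes, 4.28% were called at D0, 3.48% at D3 and 0.381% at D90. Cxcr6, found on effector T cells, rose by 0.80 ± 0.17 at D0 and 0.75 ± 0.17 at D3. Ackr3, named Cxcr7 on the array, is a scavenger of Cxcl12, and it was lower by -0.63 ± 0.14 at D0. Ccr10 was over-expressed at D3 (0.61) and at D90 (0.71), and the D3 call was lost with the slide as a block (0.49). Cxcr2, the main neutrophil receptor, differed by 0.37 ± 0.15 at D0 and 0.45 ± 0.15 at D3, not called. Ccr4, Ccr8, Cxcr5 and Xcr1 were well above background on no more than 5 arrays.

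Downstream of the receptors, 23 of 24 listed signalling genes were tested. The list holds G protein subunits, arrestins, receptor kinases and regulators of G protein signalling, besides signalling genes of other kinds. Rgs18, a regulator found in platelets and myeloid cells, was the 1 called at D0, by 0.59 ± 0.12, where 4.28% of all genes were called. That call was lost with the slide as a block (0.55). None was called at D3, D28, D90 or D180 in limma, where 4, 3, 0 and 1 of 23 had an unadjusted p under 0.05, against 21.8%, 16.6%, 7.11% and 8.05% of all genes. The median change of the list was 0.06 at D0 and 0.03 at D3.

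Some markers of leukocytes were called at D0 and others were not. Of all genes, 4.28% were called at D0 and 3.48% at D3. Of 8 monocyte markers, 5 were over-expressed at D0 and 3 at D3. Cd14, a lipopolysaccharide co-receptor, rose by 0.92 ± 0.08 and Fcnb, a secreted lectin of monocytes, by 1.56 ± 0.21 at D0. The Fcnb mean was 11.23 in exposed rats of D0 and 11.48 in control rats of D3. The mean of the monocyte list ran from 9.16 to 9.52 in control rats of D0, from 9.91 to 10.11 in exposed rats of D0 and from 9.75 to 10.31 in control rats of D3. Of 8 neutrophil markers, 4 were over-expressed at D0, among them Cd177 by 2.43 ± 0.15 and S100a9 by 1.69 ± 0.17. Of the rest, Cxcr2 (0.37) and Csf3r (0.18) were higher and Mmp8 (-0.27) and Fpr1 (-0.31) lower at D0, without a call. Of 6 B cell markers, 1 rose at D0 (Cd79b, 0.68 ± 0.20), and 0 of 7 natural killer cell and 0 of 8 alveolar macrophage markers were called at D0. At an unadjusted p under 0.05 in limma these were 0 and 3, against 23.4% of all genes, and the 3 were Cd68 (0.66), Krt79 (0.19) and Car4 (-0.27). With the slide as a block Cd68, a lysosomal protein of macrophages, was called at D0 (0.68). At D3, Blk of the B cell list (0.66) and Siglec1 of the alveolar macrophage list (0.94) were over-expressed. No other marker of these 2 lists was called at D3. The Siglec1 change at D3 minus that at D0 was also called (0.81). Of 9 dendritic cell markers, 2 were over-expressed at D0 and at D3, the chemokine Ccl22 (1.51 and 1.49) and the lectin receptor Clec9a (0.66 and 0.77). With the slide as a block Zbtb46, a transcription factor, was called lower on both days (-0.65 and -0.85). The mean of the dendritic cell list ran from 6.65 to 6.90 in control rats of D0 and from 6.90 to 7.07 in exposed rats. The part of these lists in the receptor differences was not tested.

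Genes of other kinds moved too. Of 9 clock output genes, 7 were under-expressed and 1 over-expressed at D0, where 4.28% of all genes were called. Of 9 glucocorticoid-responsive genes, 2 were under-expressed at D0. In the positive arm of the clock, Arntl (1.26) and Nfil3 (1.03) were over-expressed at D0, and Npas2 (0.29) and Clock (0.11) were not. Arntl was over-expressed at D3 (1.67) and under-expressed at D28 (-1.47), D90 (-1.58) and D180 (-1.09). Control rats of D28 exceeded those of D0 in Arntl (2.95), Npas2 (3.15) and Nfil3 (1.51), all called, and in Clock (0.58), not called. Thymus, lymph node stroma, red blood cell and cardiac muscle markers gave 0 calls at D0 in limma (0 of 6, 0 of 6, 2 of 5 and 0 of 7 at an unadjusted p under 0.05, against 23.4% of all genes). At D3, where 3.48% of all genes were called, Chst4 of the lymph node stroma list was under-expressed (-0.80). The mesothelium markers Upk3b (-0.60), Wt1 (-0.71) and Upk1b (-0.64) were also under-expressed at D3, and Msln (-0.31) and Lrrn4 (-0.43) were not called. With the slide as a block, Upk3b and Wt1 lost the call. The part of all these genes in the receptor values was not tested.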

How the data were processed

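Per the labels, accessory lobe RNA carried the Cy3 dye on one-colour Agilent arrays. The authors deposited scanner intensity values extracted with Agilent Feature Extraction 11.0.1.1, a version named in the submitters' processing notes. They also deposited a table of intensity values whose ranks almost equal those of the median signal (lowest Spearman correlation 0.999993). Here log2 gProcessedSignal was used. Outlier spots were dropped, spots of a probe averaged, arrays quantile normalized (limma 3.58.1, R 4.3.3), and probes kept if above the 95th percentile of negative controls on at least 5 arrays. The probe with the highest mean stood for a gene. A model of 10 group means was fitted over all 50 arrays. Each of the 9 receptors was named, as were listed ligands and other receptors, called signalling genes, and the 3 most alike genes per receptor. For Ccr6 some further genes were named. The members and lists were chosen with earlier results of these data known. The test was checked on simulated data. Alternatives were scaling, background, filter, probe summary, slide and replicate blocks, the deposited table, single days, call rule, and leaving out each rat. One listed receptor is not reported here. Array number limits precision.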

Additional observations from a re-analysis of the deposited data

Results flagged for a closer look

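The Ccr2 response differed between days. The exposed minus control change at a later day minus that at D0 was -0.78 for D3. It was -0.77 for D28 and -1.20 for D90. For D180 it was -1.09. The Ccr2 means of D0 and D3 were 7.00 and 6.97 in exposed rats and 5.86 and 6.60 in control rats. Each of these Ccr2 differences used the same D0 rats. After normexp background correction those of D3 (-0.42) and D28 (-0.40) fell short of 1.5-fold. The Cxcr3 change at D90 minus that at D0 was -0.61. These were the 5 called of 36 such differences tested.

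In 10 of the 90 groups of 5 rats, 1 rat stood apart, with its gap to the nearest rat divided by the range of the group above 0.71. Chance flags about 1 in 20 groups. The Ccr2 level of 1 exposed rat of D3 (7.25) was above the next (6.92), a ratio of 0.901. For Ccr3, near background, the highest control rat of D0 (4.46, ratio 0.784) and the highest exposed rat of D90 (6.43, ratio 0.761) stood apart. Ccr7 gave 4 such groups. They were the lowest control rat of D0 (5.54, ratio 0.903), the lowest control rat of D90 (6.40, ratio 0.754), the highest exposed rat of D90 (6.96, ratio 0.860) and the lowest exposed rat of D180 (6.35, ratio 0.832). The highest control rat stood apart for Cxcr3 at D90 (7.65, ratio 0.792), for Cxcr4 at D28 (10.92, ratio 0.7102) and for Cx3cr1 at D28 (11.92, ratio 0.826). Control replicate 5 of D28 was that rat for both Cxcr4 and Cx3cr1.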

How the results depend on the processing

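The calls of Ccr2 and Ccr6 at D0 held under scaling, background, filter, probe summary, slide block, the deposited table and a fit of D0 alone. With the controls of D0, D3 and D28 together, chosen after seeing the data, 1 receptor was called. With no fold limit 4, 3 and 1 receptors were called at D0, D3 and D28. Without single rats 2 to 3 receptors were called at D0, 0 to 1 at D3 and 0 at later days. With the slide as a block, ligands gave 2 calls at D28 and 1 at D180, and signalling genes 0 at D0 and 1 at D28. Correlations of same-numbered rats ran from -0.34 to 0.45. Without those of differently numbered rats beside them, they cannot decide whether replicate numbers pair rats. With the replicate block 2 receptors were called at D0, Ccr2 (1.14) and Ccr6 (0.76), and 0 on other days. The sign of uncalled differences turned in these cases, and the cause was not tested. At D28 it turned under normexp for Ccr1 (-0.013) and Ccr3 (0.0089), in the deposited table for Ccr1 (-0.016), and with the slide block for Cx3cr1 (-0.060) and Ackr4 (-0.032). At D180 it turned under 75th percentile scaling for Ccr2 (-0.049) and Cxcr3 (-0.049). At D0 it turned with the 3 control groups together for Ccr3 (-0.074) and Ackr4 (-0.045). Without single rats Ackr4 at D0 ran from -0.10 to 0.083. Ccr3 ran from -0.28 to 0.57 at D3, -0.44 to 0.36 at D28 and -0.15 to 0.65 at D90. Ccr1 ran from -0.078 to 0.081 at D28 and -0.062 to 0.034 at D90. Cx3cr1 ran from -0.0046 to 0.48 at D28 and -0.39 to 0.019 at D90. Ccr7 at D90 ran from -0.022 to 0.079 and Cxcr3 at D180 from -0.050 to 0.097. The D3 change minus that at D0 ran from -0.13 to 0.073 for Ccr7 and -0.042 to 0.11 for Cxcr3. Values of Ccr3 near background are the least precise.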
